A study of Mus musculus with 12 samples.

Results

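The comparison described here sets endometrial macrophages of mice treated with cytokine-primed mesenchymal stromal cells against those of mice treated with control cells. Its members are the 3 primed and 3 control MSC samples, 6 of the 12 samples in the series. Genes were kept where FPKM (sequenced fragments per kilobase of a transcript, relative to all mapped fragments) reached at least 1 in at least 3 of the 12 samples, which left 11604 of 22294 genes. All 6 samples come from mice with a model of intrauterine adhesion (IUA), in which scar tissue joins the walls of the uterus. Both groups received mesenchymal stromal cells from human umbilical cord (hUC-MSC), so they share the adhesion model and the human cells. What separates them by label is whether the cells were primed. The sample labels give no batch of animals, sorting or libraries, so a batch that followed the groups could not be told apart from priming. The cytokines, the cell dose, the timing, and the strain and age of the mice are not given in the sources used here. The other groups, used here for their levels and for the shared estimate of spread, are 3 Sham-operated samples and 3 samples of the untreated model, which alone carry the name Matrigel. Cells were taken from digested endometrium with magnetic beads against F4/80, a macrophage surface protein, and their polyadenylated RNA was sequenced. Nothing says that each sample is a separate mouse, so p-values measure only the spread between these samples, which may be technical.

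Macrophages take up debris, present antigen and release signals that steer inflammation and repair, and in the uterus they take part in the clearance and rebuilding of the endometrium. Mesenchymal stromal cells act on them largely through secreted factors, and exposure to inflammatory cytokines before transfer is known to change what these cells secrete. In the macrophage, interferon gamma and the interleukin-4 family signal through JAK kinases, which phosphorylate STAT proteins. STAT pairs activated by interferon gamma bind GAS elements in the promoters of guanylate-binding proteins, immunity-related GTPases and chemokines, while STAT6 carries the interleukin-4 signal toward genes of alternative activation.

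The values are the authors' FPKM, whose sums ran from 532636 to 538071 in the primed samples and from 546157 to 556991 in the control samples. These sums do not give the number of reads, so depth is unknown. The sort antigen Adgre1 (F4/80) stood at 836.7, 1039 and 944 FPKM in control MSC replicates 1 to 3 and at 1161, 1382 and 983 in primed MSC replicates 1 to 3, so the groups overlapped. The log2 change of Adgre1 was 0.31 ± 0.14 (SE, adjusted p = 0.380 by limma). Of the 25 macrophage identity genes, all 25 were tested and none passed in either direction. Log2 changes were positive for 18 of them and negative for 7, with a median of 0.06. In the primed samples 4 lay wholly higher and 4 wholly lower, beside 12.3% and 12.9% of all tested genes. The summed level of the 25 genes spanned 42128 to 46107 FPKM in control and 41879 to 45138 in primed samples. The leukocyte gene Ptprc differed by 0.01 ± 0.13 on the log2 scale (SE, 95% interval -0.28 to 0.29, adjusted p = 0.988 by limma). On the first principal component of the 6 samples, which held 37.4% of the variance, the control samples lay between -24.0 and -8.83 and the primed samples between 13.5 and 18.6.

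Of the 11604 genes, 13 differed between primed and control MSC (0.112%). Among the 9 that rose with primed cells (0.0776%) were Pxn, Map3k11, Tgfb3, Jak3, Hdac5, Dctn1, Epb41 and Snx18. The 4 that fell (0.0345%) were Serpina1e, Pinlyp, Cwh43 and S100a10. The call is an adjusted p under 0.05 in limma, on log2(FPKM + 1), in a fit to all 12 samples, and fold changes on that scale understate the change of low genes. A larger number, 1496 genes (12.9%), had an unadjusted p under 0.05, with 749 higher (6.45%) and 747 lower (6.44%), and 46 (0.396%) had an adjusted p under 0.1. The 3 primed values lay wholly above the 3 control values for 1429 genes (12.3%) and wholly below them for 1494 (12.9%). The median log2 change over all tested genes was -0.03, and 45.1% of these genes had a positive change.

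The count of 13 depends on which samples enter the fit. Leaving out any 1 of the 6 treated samples left 0 to 2 genes, while a fit to these 6 samples alone called 207 (1.78%), with 150 higher (1.29%) and 57 lower (0.491%), and all 13 genes passed in it. Without IUA replicate 3 the fit called 233, with 183 higher (1.58%) and 50 lower (0.431%), without Sham replicate 2 it called 3 and without Sham replicate 3 it called 6. Of the 13 genes, 7 had an adjusted p of at least 0.049, the highest 0.04996. Just outside the threshold lay Akr1b7, Map7d1, Cxcl9, Chil4, Selenon, Ltc4s and Serpina3g, 7 genes with an adjusted p up to 0.055. The plot of all genes shows the 13 at the top.

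**Figure D1:**
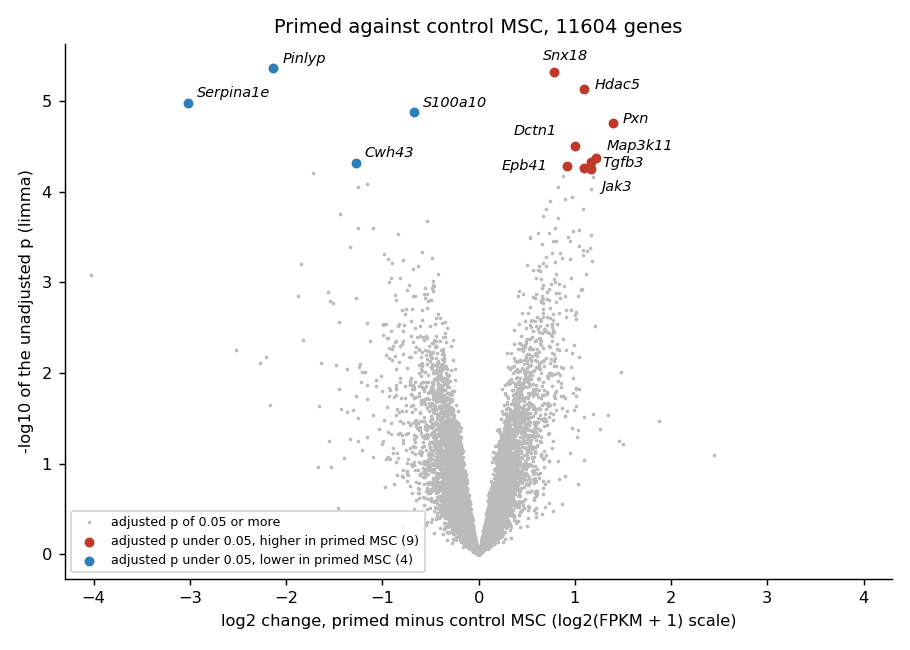
Each point is 1 of the 11604 tested genes, with the log2 change (primed minus control MSC, log2(FPKM + 1) scale) on the x axis and -log10 of limma's unadjusted p on the y axis. The 9 genes in red and the 4 in blue passed an adjusted p of 0.05, and the grey genes fall on both sides of 0.

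Transcript GC content moved with the groups. Across genes, the Spearman correlation between GC content and a sample's deviation from the mean of the 12 samples was 0.184, 0.137 and 0.216 in the primed samples. It was 0.0885, 0.00982 and -0.0925 in the control samples and 0.0942, 0.0687 and 0.0736 in the Sham samples. In the IUA samples it was -0.148, -0.178 and, in replicate 3, -0.483. The FPKM levels given here for Sham, IUA and the treated groups are not corrected for GC content. In the decile of genes lowest in GC the median log2 change was -0.09, and in the decile of highest GC it was 0.12. The 9 genes that rose had a median GC content of 58.4%, against 50.4% over all tested genes. A correction of each sample for GC content brought the decile medians to between -0.04 and 0.00, called 21 genes (0.181%), and kept all 13, with adjusted p-values from 0.00642 to 0.0491.

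**Figure D2:**
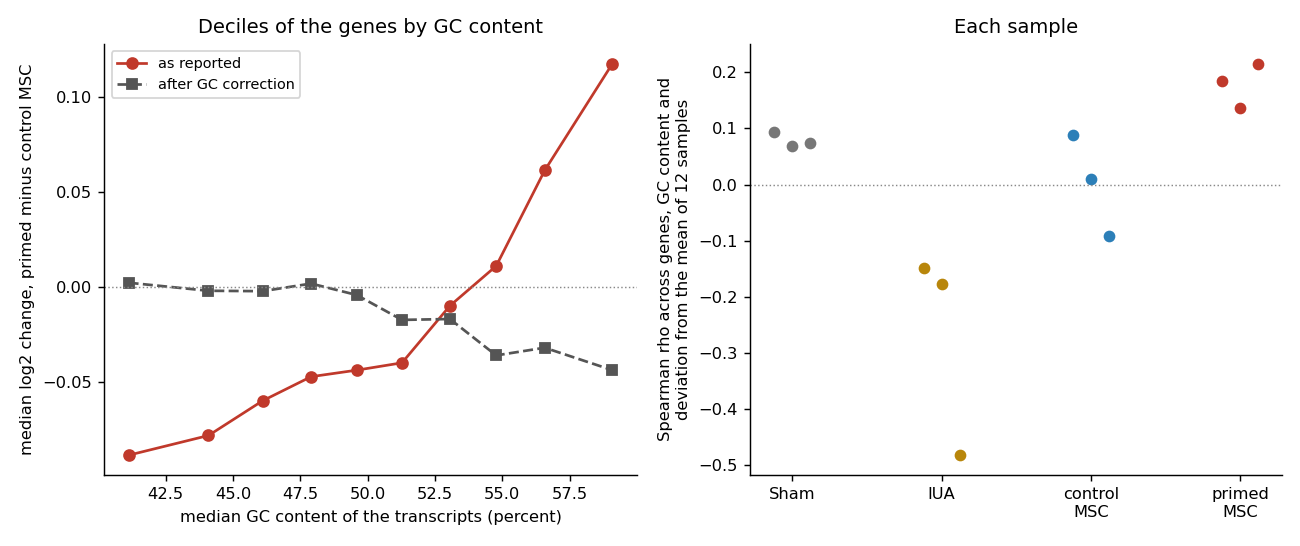
Left, the median log2 change (primed minus control MSC) of the genes in each decile of transcript GC content, as reported (red circles) and after the GC correction (grey squares). Right, for each of the 12 samples, the Spearman correlation across genes between GC content and the deviation from the mean of all samples; the 3 primed samples lie highest and IUA replicate 3 lies at -0.483.

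Of the genes that rose, Pxn encodes paxillin, an adaptor that links integrins at focal adhesions to kinases and actin. Pxn (chromosome 5, 115506676 to 115555987, plus strand, mm10) was at 14.4, 15.1 and 13.5 FPKM in the control and at 39.9, 39.9 and 38.2 in the primed samples. The lowest primed value was thus well above the highest control value, and the means of 14.3 ± 0.811 and 39.4 ± 0.976 (SD, n = 3) differed 2.75-fold. On the log2 scale the change was 1.40 ± 0.20 (SE, adjusted p = 0.0342 by limma). Sham stood between them at 18.9 ± 1.13 and IUA lowest at 7.97 ± 2.98.

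Hdac5, a class IIa histone deacetylase that represses transcription factors of the MEF2 family, also rose. Its values (chromosome 11, 102194432 to 102230166, minus strand) were 10.6, 9.78 and 8.36 FPKM in control and 20.6, 22.4 and 21.4 in primed samples. No primed sample came near the control range, and the log2 change was 1.09 ± 0.15 (adjusted p = 0.0283 by limma). Means in Sham and IUA were 8.58 and 5.80, and the Sham mean lay within the control range.

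Map3k11 encodes mixed-lineage kinase 3, which acts upstream of the JNK and p38 kinases. In control samples Map3k11 (chromosome 19, 5688742 to 5702865, plus strand) stood at 4.42, 4.00 and 2.59 FPKM, and in primed samples at 9.66, 9.60 and 9.83. The primed values were nearly identical to each other and close to the Sham mean of 9.01, while IUA was at 1.93. The log2 change was 1.22 ± 0.20 (adjusted p = 0.04996 by limma). Its span overlaps Pcnx3 on the opposite strand, and as the counting is not stated to use strand, reads of the pair cannot be told apart; Pcnx3 reached at most 2.96 FPKM in any sample.

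Tgfb3, a ligand of the TGF-beta family that acts in tissue repair, was lowest in the untreated model. Its level (chromosome 12, 86056745 to 86079041, minus strand) was 11.8, 11.9 and 10.6 FPKM in control and 25.2, 28.6 and 27.3 in primed samples, against means of 6.91 in Sham and 4.90 in IUA. Every treated sample exceeded every Sham and IUA sample, and the primed samples exceeded the control samples by a log2 of 1.17 ± 0.19 (adjusted p = 0.04996 by limma). Part of its span is shared with Ttll5 on the other strand, whose highest value was 4.44 FPKM.

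Jak3 belongs to the cytokine pathway, as the kinase bound to the common gamma chain of receptors such as that for interleukin-4. Jak3 (chromosome 8, 71676296 to 71690575, plus strand) was at 3.31, 3.26 and 2.34 FPKM in control and at 9.12, 7.08 and 7.43 in primed samples. The lowest primed value was above the highest control value, and the log2 change was 1.16 ± 0.19 (adjusted p = 0.04996 by limma). Jak3 was lowest in IUA, at 1.79, and at 3.65 in Sham. Its span overlaps Insl3 on the same strand, which reached at most 0.39 FPKM.

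Snx18 encodes a sorting nexin that bends membrane during endocytosis and autophagosome formation. Its values (chromosome 13, 113592179 to 113618564, minus strand) were 47.7, 55.9 and 46.9 FPKM in control and 93.1, 83.6 and 84.0 in primed samples, with 27.9 in Sham and 35.6 in IUA. The change of 0.78 ± 0.10 was the smallest among the genes that rose, with an adjusted p of 0.0281 by limma. Dctn1, the large subunit of the dynein activator dynactin (chromosome 6, 83165920 to 83200117, plus strand), was at 4.51, 3.36 and 2.98 in control and 7.94, 7.65 and 8.96 in primed samples. Epb41, protein 4.1 of the spectrin-actin membrane skeleton (chromosome 4, 131923413 to 132075321, minus strand), was at 18.3, 16.9 and 18.1 in control and 34.4, 37.6 and 31.3 in primed samples. Neither gene's groups overlapped, and their log2 changes were 1.00 ± 0.16 and 0.91 ± 0.15. Sham levels of 7.58 for Dctn1 and 18.2 for Epb41 exceeded the IUA levels of 2.92 and 10.99.

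**Figure D3:**
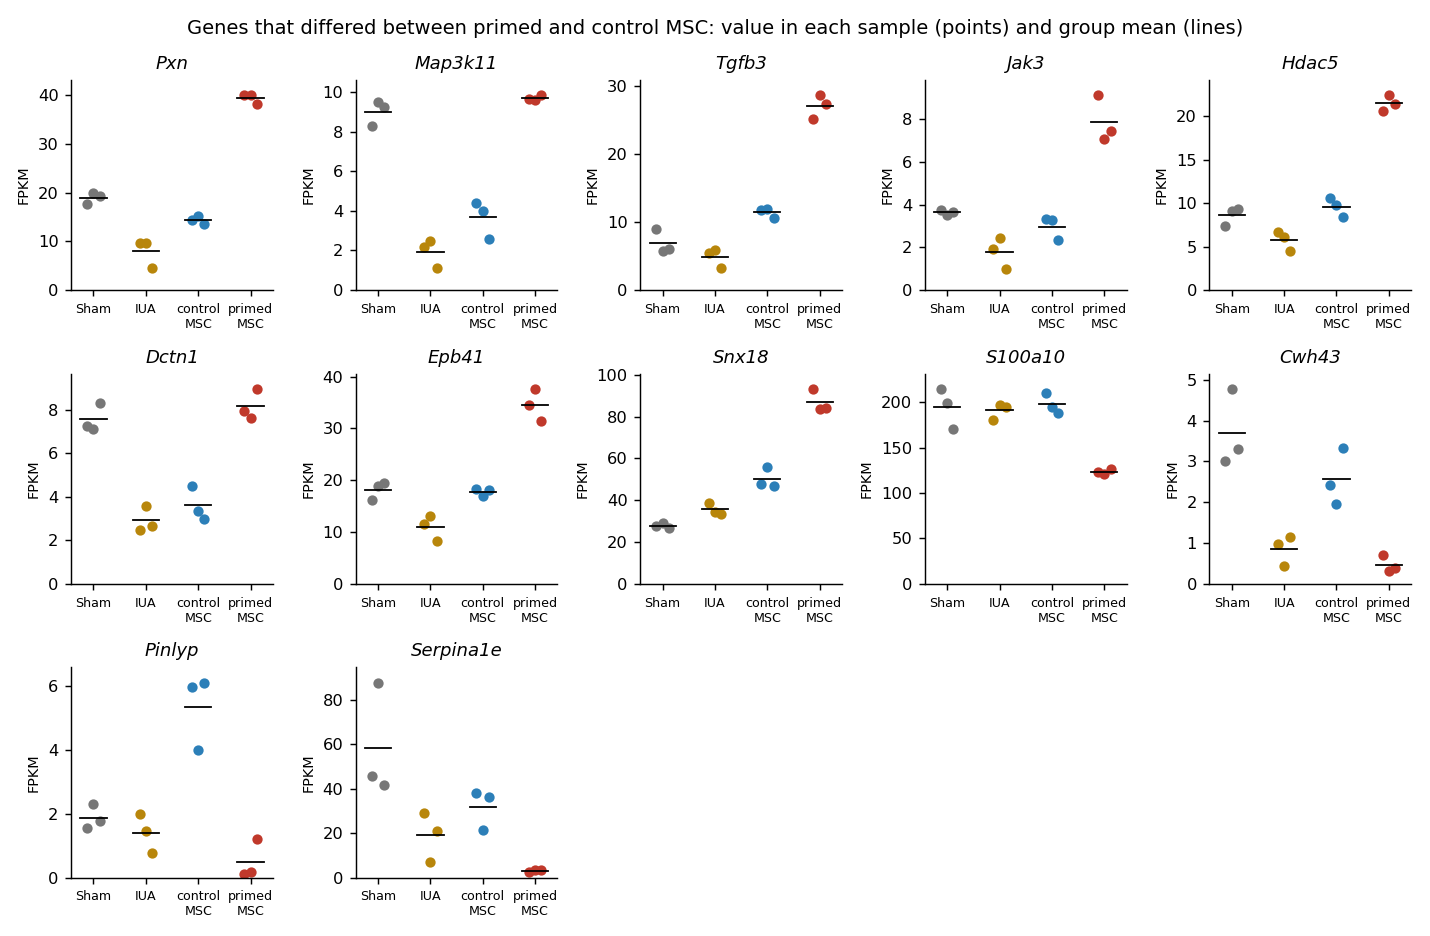
FPKM (linear axes from 0) of genes that passed, in each of 3 samples per group (points) with the group mean (line), for Sham, IUA, control MSC and primed MSC. In the panels from Pxn to Snx18 all primed points lie above all control points, and in the last 4 all lie below them.

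Of the 4 genes that fell, S100a10 was the most abundant. It encodes p11, the partner of annexin A2 at the plasma membrane. S100a10 (chromosome 3, 93555080 to 93564643, plus strand) was at 210.03, 195 and 188 FPKM in control and 123, 121 and 126 in primed samples. Sham, IUA and control MSC lay close together, with means of 195, 191 and 198, and the primed mean of 123 stood apart by a log2 of -0.68 ± 0.10 (adjusted p = 0.0309 by limma).

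Serpina1e belongs to the alpha-1 antitrypsin family of protease inhibitors. Its values (chromosome 12, 103946931 to 103958975, minus strand) were 38.2, 21.2 and 36.4 FPKM in control and 2.36, 3.25 and 3.29 in primed samples, a log2 change of -3.02 ± 0.42 (adjusted p = 0.0304 by limma). The family holds near-identical copies, so the authors' counting could split reads among them and this value is uncertain. Pinlyp, a secreted inhibitor of phospholipase A2 (chromosome 7, 24541658 to 24546118, minus strand), was at 5.96, 4.00 and 6.10 in control and 0.12, 0.18 and 1.21 in primed samples. Its log2 change was -2.13 ± 0.27 (adjusted p = 0.0281 by limma). Cwh43, which takes part in remodelling the lipid of GPI anchors (chromosome 5, 73406075 to 73453435, plus strand), was at 2.43, 1.95 and 3.33 in control and 0.70, 0.31 and 0.38 in primed samples, a log2 change of -1.28 ± 0.21 (adjusted p = 0.04996 by limma). None of these 3 genes is in any of the gene lists used here.

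Other genes with non-overlapping groups came close to the threshold. Map7d1, a microtubule-associated protein, was at 26.7, 30.3 and 23.5 FPKM in control and 49.6, 48.9 and 51.7 in primed samples (0.88 ± 0.15, adjusted p = 0.0504 by limma). Selenon, a selenoprotein of the endoplasmic reticulum, was at 6.56, 6.55 and 6.77 in control and 12.7, 11.7 and 13.07 in primed samples (0.82 ± 0.14, adjusted p = 0.0541). On the lower side Akr1b7, an aldo-keto reductase, was at 4.58, 2.52 and 5.68 in control and 0.35, 0.65 and 0.64 in primed samples (-1.72 ± 0.29, adjusted p = 0.0504). Nudt3, which cleaves inositol pyrophosphates, had the tightest groups of these, at 35.7, 35.8 and 36.2 in control and 24.3, 24.8 and 24.2 in primed samples (-0.54 ± 0.10, adjusted p = 0.084). Fabp7, a fatty acid-binding protein, Rpgrip1, Emp1 and Wfdc10 differed by -1.10 ± 0.21, -1.25 ± 0.24, -0.83 ± 0.17 and -1.34 ± 0.28, with adjusted p-values from 0.0909 to 0.101.

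Genes secreted by uterine glands went both ways in the primed samples, 10 of 13 with a negative and 3 with a positive log2 change, and none passed. Prss28 and Prss29 encode serine proteases of uterine gland secretion. Prss28 was at 359.7, 255 and 196 FPKM in control and 48.7, 21.5 and 142 in primed samples, without overlap, and its log2 difference of -2.28 ± 0.71 had an adjusted p of 0.237. Prss29 was at 1018, 744.6 and 588 in control and 170.4, 57.5 and 486 in primed samples (-2.17 ± 0.83, adjusted p = 0.311 by limma). Bpifb5, named after its values were seen, had the highest log2 change of all tested genes and a wide spread, at 23.3, 0.24 and 0.03 in control and 4.50, 20.6 and 40.8 in primed samples (2.44 ± 1.28, adjusted p = 0.458). Of the gland genes 4 lay wholly lower in the primed samples, beside 12.9% of all tested genes, none wholly higher, and the median was -0.19. The list's mean log2 level overlapped, at 5.71, 4.67 and 4.64 in control and 4.96, 3.72 and 5.14 in primed samples. Their summed level spanned 1472 to 2714 FPKM in control and 415 to 1706 in primed samples, overlapping, and no defining marker was at 0 in all 6. The part of gland RNA in Serpina1e, Pinlyp and Cwh43 was not tested. In these bulk samples fewer cells of a type and less RNA per cell cannot be told apart. Of the 19 uterine epithelium genes none passed, none separated the groups, the median was 0.02, and the sums were 1672 to 4194 in control and 1696 to 2667 in primed samples.

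Interferon-gamma-induced genes were higher with primed than with control cells as a list, though 1 member passed, beside 0.112% of all tested genes. Of 22 listed genes 20 were tested, and all 20 had a positive log2 change, beside 45.1% of all tested genes. The 3 primed values lay wholly above the control values for 15, beside 12.3% of all tested genes. The list's median was 0.66, beside -0.03 over all tested genes. Its mean log2(FPKM + 1) was 4.27, 4.39 and 4.29 in the control and 5.34, 4.79 and 4.83 in the primed samples, so primed replicate 1 was highest. In untreated IUA it was 4.73, 4.90 and 4.70, and in Sham 4.89, 5.15 and 4.40. All control MSC samples thus lay below every IUA sample, and the other primed samples lay within the IUA range. After GC correction the median was 0.74 and 2 members passed, Cxcl9 among them, beside 0.181% of all tested genes.

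Igtp, Irgm2, Tgtp1 and Tgtp2 encode immunity-related GTPases that attack the vacuoles of intracellular parasites. Their promoters are shown because each holds a GAS element (TTCNNNGAA) followed by an ISRE element (GAAANNGAAA) 11 bases further along, counted from start to start. GAS is bound by pairs of STAT proteins, and ISRE by interferon regulatory factors and STAT complexes. The sequences are from RefSeq (GRCm38.p6), 41 bases each, 5′ to 3′ on the gene's strand, with both elements in capitals.
Igtp: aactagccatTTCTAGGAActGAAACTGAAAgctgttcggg
Irgm2: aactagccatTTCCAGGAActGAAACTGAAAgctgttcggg
Tgtp1: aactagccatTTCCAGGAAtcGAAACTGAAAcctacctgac
Tgtp2: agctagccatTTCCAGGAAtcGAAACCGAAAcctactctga

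They lie at chr11:58199501-58199541 (plus strand, Igtp), chr11:58214892-58214932 (plus, Irgm2), chr11:48992304-48992344 (minus, Tgtp1) and chr11:49064263-49064303 (minus, Tgtp2). The GAS element starts 45, 75, 88 and 81 bases before the gene start, in the same order. Both motifs were searched on both strands in the 250 bases before the start, and ISRE may overlap GAS. Of the 14 tested list genes with a RefSeq promoter, 7 held GAS, 11 held ISRE (78.6%) and 6 held both (42.9%). Related copies such as Tgtp1 and Tgtp2 count as separate genes in these numbers. Cxcl9 and Cd274 held neither motif, and Gbp2, Gbp3, Cxcl10, Irgm1 and Socs1 held ISRE without GAS. Among 9188 tested genes with a promoter, 7.19% held GAS, 3.38% ISRE and 0.359% both. A match describes the sequence and does not show binding.

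None of these 4 genes passed, and primed replicate 1 had the highest value of each. Igtp was at 26.8, 35.4 and 27.6 FPKM in control and 81.6, 66.1 and 40.9 in primed samples (log2 1.00 ± 0.26, adjusted p = 0.168 by limma). Irgm2 was at 6.93, 7.87 and 6.99 in control and 15.5, 10.1 and 9.70 in primed samples, and did not overlap either (adjusted p = 0.387). Tgtp1 overlapped, at 12, 8.67 and 8.27 in control and 26.7, 7 and 17.2 in primed samples. Tgtp2 was at 34.3, 38.8 and 32.4 in control and 94.1, 58.5 and 53.7 in primed samples (0.91 ± 0.27, adjusted p = 0.215). Copies within the Gbp, Irgm and Tgtp families are alike enough that reads may be shared between them.

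Cxcl9, a chemokine that draws T cells, had the largest difference in the list. It was at 3.83, 6.44 and 7.27 FPKM in control and 12.1, 13.04 and 18.0 in primed samples (1.19 ± 0.20, adjusted p = 0.0504 by limma). Gbp8, a guanylate-binding protein, was at 3.21, 5.67 and 7.90 in control and 12.4, 9.64 and 10.5 in primed samples (0.91 ± 0.24, adjusted p = 0.176). Sham levels were not in 1 order across the list. Igtp averaged 79.3 in Sham and 62.9 with primed cells, and Tgtp1 43.6 and 17.0, whereas Cxcl9 at 1.24 was lowest in Sham, as the heat map of the list shows. Ifng itself, added after its values were seen, was at most 0.34 FPKM in the 6 samples, and its receptor genes Ifngr1 and Ifngr2 differed by 0.09 ± 0.09 and -0.13 ± 0.13. Among 22 type I interferon-stimulated genes none passed and the median was 0.09.

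**Figure D4:**
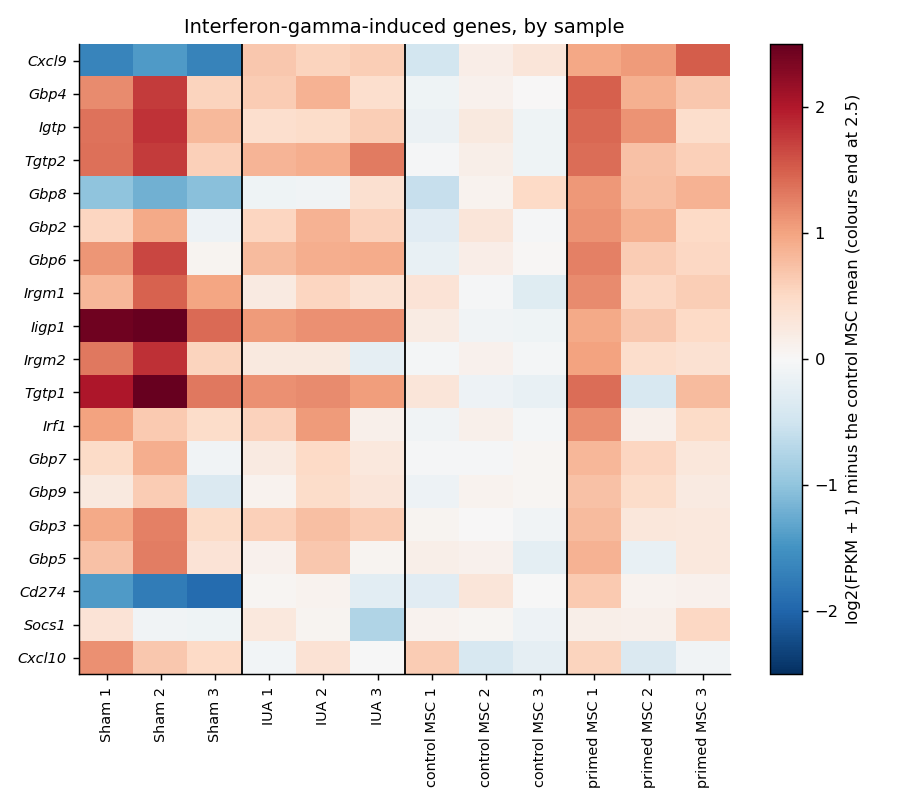
Colour gives log2(FPKM + 1) minus the mean of the control MSC samples for interferon-gamma-induced genes (rows, by log2 change) in the 12 samples (columns, 3 per group). Primed replicate 1 is the darkest primed column, and Sham is above control for Igtp and Tgtp1 but below it for Cxcl9.

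In the list of interleukin-4 receptor and JAK-STAT genes, 2 of 19 passed, Jak3 among them, beside 0.112% of all tested genes. Wholly higher in the primed samples lay 11, beside 12.3%. The lists used here share members, so 1 gene that passed can count in several of them, and their counts are not independent. Tyk2, a JAK kinase of interferon receptors, was at 1.35, 1.31 and 1.42 FPKM in control and 2.57, 3.03 and 3.17 in primed samples (0.73 ± 0.14, adjusted p = 0.0909 by limma). Il4ra, the interleukin-4 receptor chain, was at 48.8, 53.8 and 32.9 in control and 107.7, 81.1 and 81.2 in primed samples (1.00 ± 0.29, adjusted p = 0.212). Of 22 NF-kB subunits, inhibitors and targets none passed, 7 lay wholly higher (12.3% of all tested genes did) and none wholly lower, with a median of 0.22. Nfkb2, the precursor of p52, was at 40.1, 35.3 and 28.1 in control and 70.9, 54.1 and 60.7 in primed samples (0.83 ± 0.28, adjusted p = 0.263).

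Beside Tgfb3, the only one of 23 TGF-beta genes to pass, Tgfb1 was at 2.47, 2.92 and 2.40 FPKM in control and 5.69, 4.84 and 5.01 in primed samples (0.78 ± 0.24, adjusted p = 0.221 by limma). The list's median was 0.11, and of all tested genes 0.112% passed. Among 26 focal adhesion genes Pxn passed and 6 lay wholly higher, beside 0.112% and 12.3% of all tested genes. Tln1, encoding talin, which couples integrins to actin, was at 21.4, 25.8 and 21.7 in control and 36.0, 37.5 and 34.7 in primed samples (0.63 ± 0.17, adjusted p = 0.179). Itgav, the integrin alpha V chain, went the other way, at 68.03, 66.8 and 49.2 in control and 44.7, 35.5 and 45.3 in primed samples (-0.53 ± 0.17, adjusted p = 0.237).

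Hdac5 was the single histone deacetylase of 17 to pass, beside 0.112% of all tested genes, and the median of the list was -0.01. The NAD-dependent deacetylase gene Sirt1 was at 3.72, 4.08 and 4.03 FPKM in control and 2.81, 2.5 and 3.46 in primed samples (-0.34 ± 0.16, adjusted p = 0.406 by limma). Hdac8, a class I enzyme, was at 2.65, 2.40 and 3.41 in control and 2.31, 2.19 and 1.92 in primed samples (-0.28 ± 0.14, adjusted p = 0.445).

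Of the markers by which macrophage activation is sorted into classes, 1 of 20 pro-inflammatory (M1) markers passed, beside 0.112% of all tested genes. Their median was 0.20, with 12 positive and 8 negative log2 changes. In the primed samples 4 lay wholly higher and 1 wholly lower, beside 12.3% and 12.9% of all tested genes. Cxcl9, which is also in the interferon-gamma list, had the highest log2 change of these markers, 1.19. Nos2, the inducible nitric oxide synthase, was at 0.86, 3.44 and 1.19 FPKM in control and 7.07, 2.5 and 4.27 in primed samples, which overlapped. Marco, a scavenger receptor, was lower, at 44.8, 81.06 and 44.0 in control and 33.8, 29.3 and 27.0 in primed samples (-0.84 ± 0.23, adjusted p = 0.181 by limma).

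None of 21 alternative activation (M2) markers passed, and the median was -0.34. In the primed samples 9 lay wholly lower and 4 wholly higher, beside 12.9% and 12.3% of all tested genes. Log2 changes were negative for 15 markers and positive for 6, and ran from -2.20 to 1.00. In the fit to the 6 treated samples 2 passed higher and 1 lower, beside 1.29% and 0.491% of all tested genes. Chil4, a chitinase-like protein, was at 1.80, 2.29 and 1.25 FPKM in control and 0.16, 0.29 and 0.23 in primed samples (-1.16 ± 0.20, adjusted p = 0.0541 by limma). Retnla, a resistin-like secreted protein, was at 127.8, 499 and 79.2 in control and 23.9, 47.1 and 43.1 in primed samples, so control replicate 2 carried much of its difference (-2.20 ± 0.67, adjusted p = 0.228). Arg1, arginase 1, overlapped, at 1131, 1614 and 1050.3 in control and 823, 1125 and 1020.4 in primed samples. Of 9 listed eosinophil genes 4 were tested, none passed, and 3 lay wholly lower, beside 12.9% of all tested genes. All 4 had a negative log2 change, with a median of -0.71. The sum of the list was low, at 9.08 to 35.2 FPKM in control and 3.50 to 7.16 in primed samples. Its markers Siglecf and Il5ra were below the filter and overlapped. Siglecf was at 0.34, 0.87 and 0.21 in control and 0.36, 0.57 and 0.67 in primed samples. Epx, Ear1 and Ear6 were at 0 in all 6 samples, and the part of eosinophil RNA in the M2 list was not tested.

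Of 15 genes of tissue-resident macrophages 12 had a negative log2 change. None passed, 9 lay wholly lower and 1 wholly higher, beside 12.9% and 12.3% of all tested genes, and the median was -0.48. Folr2, a folate receptor of resident macrophages, was at 150.8, 154 and 139.7 FPKM in control and 98.3, 106 and 84.5 in primed samples (-0.62 ± 0.18, adjusted p = 0.215 by limma). Timd4, a receptor for phosphatidylserine on dying cells, was at 3.98, 5.82 and 3.90 in control and 1.65, 2.92 and 1.71 in primed samples (-0.85 ± 0.21, adjusted p = 0.139). The list's mean log2 level was 5.15, 5.13 and 5.02 in control and 4.48, 4.90 and 4.66 in primed samples. Recruited monocyte genes were divided, with 6 of 16 wholly lower (12.9% of all tested genes were), 1 wholly higher and a median of -0.08. The calcium-binding S100a6, at 80.1, 87.3 and 103.7 in control and 47.7, 52.9 and 54.9 in primed samples, had an adjusted p of 0.107. Thbs1, the matrix protein thrombospondin 1, was higher, at 1047, 1270 and 1187 in control and 1646, 1677 and 1366 in primed samples (0.42 ± 0.12, adjusted p = 0.208).

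Among 25 chemokine genes none passed, 8 lay wholly lower and 2 wholly higher, beside 12.9% and 12.3% of all tested genes, and the median was -0.24. Ccl6 was at 732, 926 and 897 FPKM in control and 553, 600.9 and 534 in primed samples (-0.59 ± 0.15, adjusted p = 0.161 by limma). Ltc4s, the synthase of leukotriene C4, was at 36.0, 36.8 and 31.3 in control and 9.25, 19.6 and 14.9 in primed samples (-1.25 ± 0.22, adjusted p = 0.0541). Axl, a receptor for the uptake of dying cells, was at 16.5, 14.0 and 10.9 in control and 23.1, 30.8 and 35.1 in primed samples (1.05 ± 0.22, adjusted p = 0.0996).

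Of 31 nuclear-encoded genes of the respiratory chain none passed and 30 had a negative log2 change, and the changes ran from -0.41 to 0.02 around a median of -0.18. Of these genes 13 lay wholly lower, beside 12.9% of all tested genes, and none wholly higher. Ndufa1, a subunit of complex I, was at 121.7, 137 and 135 FPKM in control and 95.5, 98.4 and 101.8 in primed samples (-0.41 ± 0.16, adjusted p = 0.314 by limma). The median after GC correction was -0.19. Cytosolic ribosomal protein genes had a median of -0.09, with 9 of 33 wholly lower, beside 12.9% of all tested genes, and none wholly higher. Slc16a3, the lactate exporter MCT4, was at 66.5, 80.95 and 54.3 in control and 179, 176 and 156.4 in primed samples, yet its standard error in the 12-sample fit was wide (1.35 ± 0.54, adjusted p = 0.331). Among the 23 immediate-early and heat shock genes, which respond to tissue digestion, none passed and the median was 0.02. Of these genes 6 lay wholly higher and 1 wholly lower in the primed samples, beside 12.3% and 12.9% of all tested genes. Fosb had the smallest adjusted p of the list (0.67 ± 0.17, adjusted p = 0.144 by limma). The plot of gene lists sets these groups side by side.

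**Figure D5:**
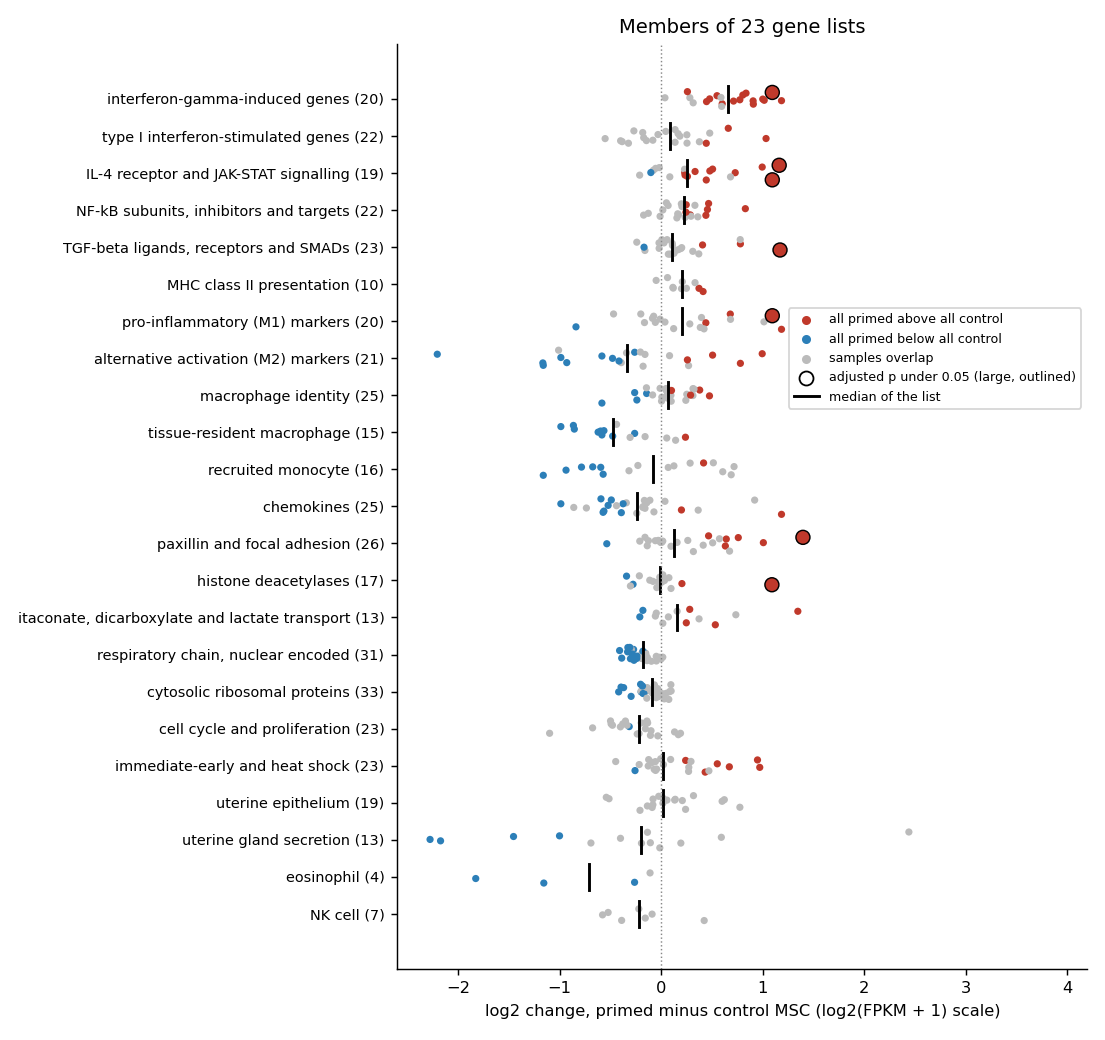
Log2 change (primed minus control MSC) of each tested member of 23 gene lists, with the number tested in parentheses and a black bar at the median. Red members lie wholly higher and blue wholly lower in the primed samples, large outlined points passed an adjusted p of 0.05, and the interferon-gamma list lies furthest to the right at a median of 0.66.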

How the data were processed

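The deposited table gives 1 FPKM value per gene and sample, computed by the authors. Per the submitters' processing notes, the build was mm10 and the tools were HISAT2, fastp, RSEM, StringTie and DESeq2, with no version or role given. Low values allowed no check for whole reads, so depth is unknown and no count test was run. From these FPKM, log2(FPKM + 1) was fitted with limma 3.58.1 in R 4.3.3, as 1 mean per group over 12 samples with a variance trend, and p-values were two-sided and adjusted (Benjamini-Hochberg) over 11604 genes. An exact permutation test of 3 against 3 samples cannot give a p under 0.1. Gene positions and transcript GC content are from GENCODE M21.

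1 of the genes called, which the rule below would name, is not reported here. The text names up to 12 called genes per direction, members of smallest p in each list described, sort and leukocyte markers, and histone deacetylases. Fewer than 12 passed in each direction, so genes of smallest p with non-overlapping groups fill up the first group. Irgm2, Tgtp1, Tgtp2, Arg1, Bpifb5 and the genes of interferon gamma and its receptor were added after their values were seen, as was the choice of lists described. The members and the 45 lists were chosen with earlier results of these data known. Alternatives covered pseudocount, filter, scaling, samples, weights, GC content and a replicate block. The labels do not say whether same-numbered samples are paired. Deviations of same-numbered control and primed samples from their group means correlated at 0.0925, 0.194 and -0.0759. Those of differently numbered samples correlated at -0.308 to 0.251. With 3 samples per group these values cannot decide whether same-numbered samples shared a batch.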

Additional observations from a re-analysis of the deposited data

How the results depend on the processing

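The 13 called genes, 9 higher and 4 lower, were recounted under the other settings, and no called log2 change reversed. With pseudocounts of 0.1 and 0.5 limma called 4 (2 higher, 2 lower) and 5 (2 higher, 3 lower). A filter at FPKM 5 gave 5 (3 and 2), and no filter gave 0, with 1755 at an unadjusted p under 0.05. Robust variances gave 20 (13 and 7), array weights 388 (243 and 145), and an adjusted p under 0.1 gave 46 (34 and 12). The 6 treated samples alone gave 207 (150 and 57), and without the Sham group 0 passed, with 1485 at an unadjusted p under 0.05. GC correction gave 21 (15 and 6). Combined, after seeing the data, with the 6 samples alone it gave 94 (64 and 30), and without IUA replicate 3 it gave 123 (90 and 33). With the replicate block 0 genes passed over 12 samples (1380 at an unadjusted p under 0.05), 34 (22 and 12) over 6 samples, and 3 (2 and 1) with GC correction. Leaving out 1 sample gave 0 to 233 genes, 0 to 183 higher and 0 to 50 lower. Without control replicates 1, 2 and 3 the counts were 0, 2 and 0, and without primed replicates 1, 2 and 3 they were 0, 0 and 1, with 921 to 1348 at an unadjusted p under 0.05. Without Sham replicates 1, 2 and 3 they were 16, 3 and 6, and without IUA replicates 1, 2 and 3 they were 10, 14 and 233. The cause was not tested. The median of the interferon-gamma list stayed between 0.49 and 0.82, and that of the resident macrophage list between -0.67 and -0.42. Depth is unknown, so counting error could not be set apart from the spread between samples.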

Other observations

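Several gene groups outside the comparison's main pathways had single members that stood apart, although none of their genes passed. C4b, a component of the classical complement pathway, was at 9.47, 12.5 and 8.63 FPKM in control and 23.2, 22.04 and 22.3 in primed samples (log2 1.09 ± 0.23, adjusted p = 0.106 by limma), while the median of 19 complement genes was -0.02. Ctsk, the collagen-cleaving cathepsin K, was at 16.7, 17.6 and 16.7 in control and 5.37, 11.1 and 9.19 in primed samples (-0.96 ± 0.26, adjusted p = 0.181), beside a median of -0.02 over 29 lysosome genes. Srebf1, a transcription factor of lipid synthesis, was at 3.67, 2.48 and 2.32 in control and 5.05, 4.87 and 5.05 in primed samples (0.66 ± 0.16, adjusted p = 0.139). Irak2, a kinase below Toll-like receptors, was higher (0.65 ± 0.17, adjusted p = 0.179), and Ly96, the partner of Toll-like receptor 4, was lower (-0.49 ± 0.12, adjusted p = 0.138).

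Across the growth factor, metalloproteinase, matrix, Fc receptor, scavenger receptor, glycolysis and haem lists no gene passed either, and medians ran between -0.15 and 0.08. Vegfa, a factor for vessel growth, was at 58.7, 68.03 and 65.98 FPKM in control and 88.6, 79.7 and 75.9 in primed samples (0.34 ± 0.14, adjusted p = 0.347 by limma), and Hbegf, an epidermal growth factor ligand, was at 111.2, 76.6 and 75.3 in control and 60.8, 49.6 and 63.2 in primed samples (-0.58 ± 0.20, adjusted p = 0.267). Among 23 cell cycle genes 20 had a negative log2 change, with a median of -0.22. None of the 23 had an unadjusted p under 0.05 by limma, and 1 lay wholly lower, beside 12.9% of all tested genes. Of the 10 tested genes of MHC class II presentation, 9 had a positive log2 change, with a median of 0.21, and H2-DMa differed most (0.41 ± 0.13, adjusted p = 0.232). Natural killer cell genes summed to between 8.64 and 52.8 FPKM in control and between 16.8 and 17.4 in primed samples. Endothelial genes summed to between 154 and 238 FPKM in control and between 143 and 179 in primed samples. Smooth muscle and pericyte genes had a median of 0.39, with 10 of 12 positive. Their sums were 179 to 294 FPKM in control and 209 to 305 in primed samples. Over 6 mesothelium genes the median was -0.55, and over 3 erythroid genes it was -0.84. Erythroid sums were low, at 8.12 to 10.8 FPKM in control and 3.00 to 5.71 in primed samples. No gene of these lists passed.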
